A study of Homo sapiens with 6 samples.

Results

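This report describes 10 genes of the transforming growth factor beta (TGF-beta) system in RCC4, an established human line derived from a clear cell carcinoma of the kidney and known to lack functional VHL protein. The genes were taken from a list of names drawn up with earlier results of these data known, and all 10 were found among the 60683 Ensembl genes of the count table: the ligands TGFB1, TGFB2 and TGFB3, the receptors TGFBR1, TGFBR2 and TGFBR3, the latent TGF-beta binding proteins LTBP1, LTBP2 and LTBP3, and the TGF-beta-induced matrix protein gene TGFBI. Messenger RNA was sequenced from RCC4 cells with genotype ATF4 KO (n = 3) and from parental RCC4 cells with genotype wild type (n = 3), and no agent is named for either group. How ATF4 was disrupted, whether the knockout is 1 clone or a pool, and whether replicates were separate cultures is not stated in the labels. The p-values therefore cover only the spread among these 6 samples, and that spread may be technical. The comparison asks which of these transcripts differ between cells labelled knockout and cells labelled wild type for ATF4. ATF4 is a bZIP transcription factor of the integrated stress response.

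TGF-beta ligands are made as precursors whose propeptide stays bound to the mature dimer after cleavage and keeps it latent. Latent TGF-beta binding proteins attach to this complex by a disulfide bond and anchor it in the matrix, and integrins of the alpha-v group or proteases release it. The free ligand binds the kinase receptor TGFBR2, which recruits and activates TGFBR1, and TGFBR1 phosphorylates SMAD2 and SMAD3. In the kidney this pathway is best known for driving matrix deposition and fibrosis.

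Libraries held between 41002611 and 46755358 counts, and 15321 genes passed the filter on low counts. Levels are given as CPM, the count divided by the TMM-scaled library total in units of 1e6 counts, fold changes are ATF4 KO over parental, and a gene was called at an adjusted p (p_adj, edgeR quasi-likelihood test, adjusted over all tested genes) below 0.05. Across all tested genes 42.0% were called, 21.2% higher and 20.8% lower. The ATF4 transcript was at 209 to 223 CPM in ATF4 KO cells and 240 to 251 CPM in parental cells (log2 fold change -0.19, neighbouring genes at a median of -0.25), which does not check the labels, since counts per gene do not show an altered coding sequence. All 8 listed markers of renal tubule and clear cell carcinoma were detected, 3 of them called higher and 2 lower, with a summed level of 6817 to 7031 CPM in ATF4 KO cells and 6120 to 6486 CPM in parental cells. Most of this sum was VIM, at 5166 CPM in ATF4 KO cells and 4808 CPM in parental cells (log2 fold change 0.10). CA9 was higher at 96.9 against 16.6 CPM (2.55), and NDUFA4L2 at 471 against 276 CPM (0.77). PAX8 and KRT18 were lower, at -0.15 and -0.09 on the log2 scale. The 7 immune and 5 endothelial markers each summed to at most 0.254 CPM in any library, with CD3E, CD14 and TYROBP at 0 counts throughout. Of 5 fibroblast markers 4 did not pass the filter (PDGFRA had at most 10 counts per library, and DCN, LUM and COL3A1 at most 1), while the receptor gene PDGFRB was lower in ATF4 KO cells (log2 fold change -1.06, p_adj = 1.04e-12), so that the summed list was at 4.595 to 5.16 CPM in ATF4 KO cells and 8.88 to 10.9 CPM in parental cells. The part of PDGFRB-expressing cells in the results below was not tested. In bulk RNA, fewer cells with a transcript and less of it per cell cannot be told apart.

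The bases before the transcription start are shown for the 4 genes whose transcript level passed the test (RefSeq windows, GRCh38.p14, 5′ to 3′ on the gene's strand). A link between the marked letters and the direction of change was not tested. In TGFB3 the capitals mark the core of the cyclic AMP response element (CRE), the letters TGACGT on either strand. In TGFB1, TGFBI and LTBP3 they mark GC boxes, the letters GGGCGG on either strand, known as binding sites of SP1-type factors. The CRE core was added as a motif after these windows had been read, and of the 2 annotated starts of TGFB3 the one that holds it is shown. TGFB3 is at chr14:75981996-75982245 (minus strand), TGFB1 at chr19:41353923-41354172 (minus strand), TGFBI at chr5:136028738-136028987 (plus strand) and LTBP3 at chr11:65558360-65558609 (minus strand).
TGFB3: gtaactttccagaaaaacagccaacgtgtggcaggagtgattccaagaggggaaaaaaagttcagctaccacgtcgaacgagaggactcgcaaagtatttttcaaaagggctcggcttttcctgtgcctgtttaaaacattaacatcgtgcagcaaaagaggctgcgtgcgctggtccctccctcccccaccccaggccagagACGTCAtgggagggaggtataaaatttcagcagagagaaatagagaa
TGFB1: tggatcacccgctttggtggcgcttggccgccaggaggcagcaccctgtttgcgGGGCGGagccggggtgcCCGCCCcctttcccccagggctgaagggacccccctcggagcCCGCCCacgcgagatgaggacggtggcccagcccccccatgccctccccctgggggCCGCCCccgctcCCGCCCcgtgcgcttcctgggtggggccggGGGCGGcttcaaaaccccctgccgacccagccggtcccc
TGFBI: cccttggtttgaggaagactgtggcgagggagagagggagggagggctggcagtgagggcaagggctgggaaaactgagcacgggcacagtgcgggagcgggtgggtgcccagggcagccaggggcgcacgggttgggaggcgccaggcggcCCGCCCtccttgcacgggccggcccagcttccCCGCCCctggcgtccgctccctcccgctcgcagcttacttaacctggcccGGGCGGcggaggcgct
LTBP3: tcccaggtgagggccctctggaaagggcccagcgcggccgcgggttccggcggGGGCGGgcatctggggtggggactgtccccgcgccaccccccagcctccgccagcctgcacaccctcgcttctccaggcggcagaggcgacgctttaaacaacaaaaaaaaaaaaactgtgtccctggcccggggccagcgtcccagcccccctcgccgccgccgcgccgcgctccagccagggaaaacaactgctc
The stretch of TGFB1 held 6 GC boxes, that of TGFBI 3 and that of LTBP3 1, while neither window of TGFB3 held any. Over windows of 300 bases, reaching 50 bases past the start, GGGCGG occurred in 45.0% of 35116 promoters and in 11 of the 22 windows of these 10 genes, some of which have several starts. Those 11 windows belonged to 7 genes, among them TGFBR1, TGFBR2, TGFBR3 and LTBP2, which were not called. TGACGT occurred in 8.0% of all windows and in 1 window each of TGFB3, TGFB2 and LTBP1. The full CRE, TGACGTCA, which contains TGACGT, was in 1.8% of all windows and in 1 window of LTBP1. The composite C/EBP-ATF element bound by ATF4 dimers, searched as TGATGNAA, was in 3.6% of all windows and in 0 of the 22, the AP-1 element TGANTCA in 7.7% and in 1 window of TGFBR2, and the SMAD-type CAGA box CAGACA in 16.9% and in 5 windows of TGFB2, TGFBR1 and LTBP1. A match describes the letters and is not evidence of binding.

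The ligand mRNA of these cells was nearly all TGFB1, and it was lower in ATF4 KO cells, while the minor ligand TGFB3 was higher. TGFB1 (ENSG00000105329, GRCh38 chromosome 19, 41301587 to 41353911, minus strand) encodes the most widely expressed isoform. It had 243, 243 and 239 CPM in ATF4 KO cells, against 288, 293 and 282 CPM in parental cells. The groups did not overlap, and the lowest parental library lay 39.1 CPM above the highest ATF4 KO library. The mean was 242 ± 1.96 CPM in ATF4 KO cells and 287 ± 5.31 CPM in parental cells (SD, n = 3 each), 1.19-fold lower in ATF4 KO cells (log2 fold change -0.25, SE 0.028, 95% interval -0.31 to -0.19, edgeR p_adj = 5.36e-11). Among all tested genes 34.0% had a larger log2 fold change in absolute value. TGFB1 shares 215 exon bases with HNRNPUL1 on the opposite strand, and reads there cannot be assigned without the strand setting. HNRNPUL1 was at 342 CPM in ATF4 KO cells and 329 CPM in parental cells and was not called (p_adj = 0.0968).

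TGFB3 (ENSG00000119699, chromosome 14, 75958099 to 75982991, minus strand), an isoform known for its part in palate fusion, was the only member called higher. It had 159, 233 and 202 counts in ATF4 KO samples, against 105, 94 and 106 counts in parental samples. In CPM these were 3.87, 5.01 and 4.27 in ATF4 KO cells and 2.42, 2.14 and 2.52 in parental cells, so that every ATF4 KO library lay above every parental one. The mean was 4.38 ± 0.581 CPM in ATF4 KO cells and 2.36 ± 0.196 CPM in parental cells (SD, n = 3 each), a 1.86-fold rise (log2 fold change 0.90, SE 0.15, 95% interval 0.61 to 1.19, p_adj = 7.93e-07). Of all tested genes 4.203% had a larger log2 fold change in absolute value. The antisense transcript TGFB3-AS1, which shares 163 exon bases with TGFB3, had 0 or 1 counts in each library.

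TGFB2, the third isoform, was near the limit of detection. It had 1, 11 and 1 counts in ATF4 KO samples and 6, 3 and 4 counts in parental samples and did not pass the filter. The ATF4 KO libraries held both the highest and the lowest counts, so that the groups overlapped. A count of 0 would allow up to 0.0642 to 0.0732 CPM per library (3 counts over the unscaled library total, counting error only). No difference was detectable at this depth.

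**Figure D1:**
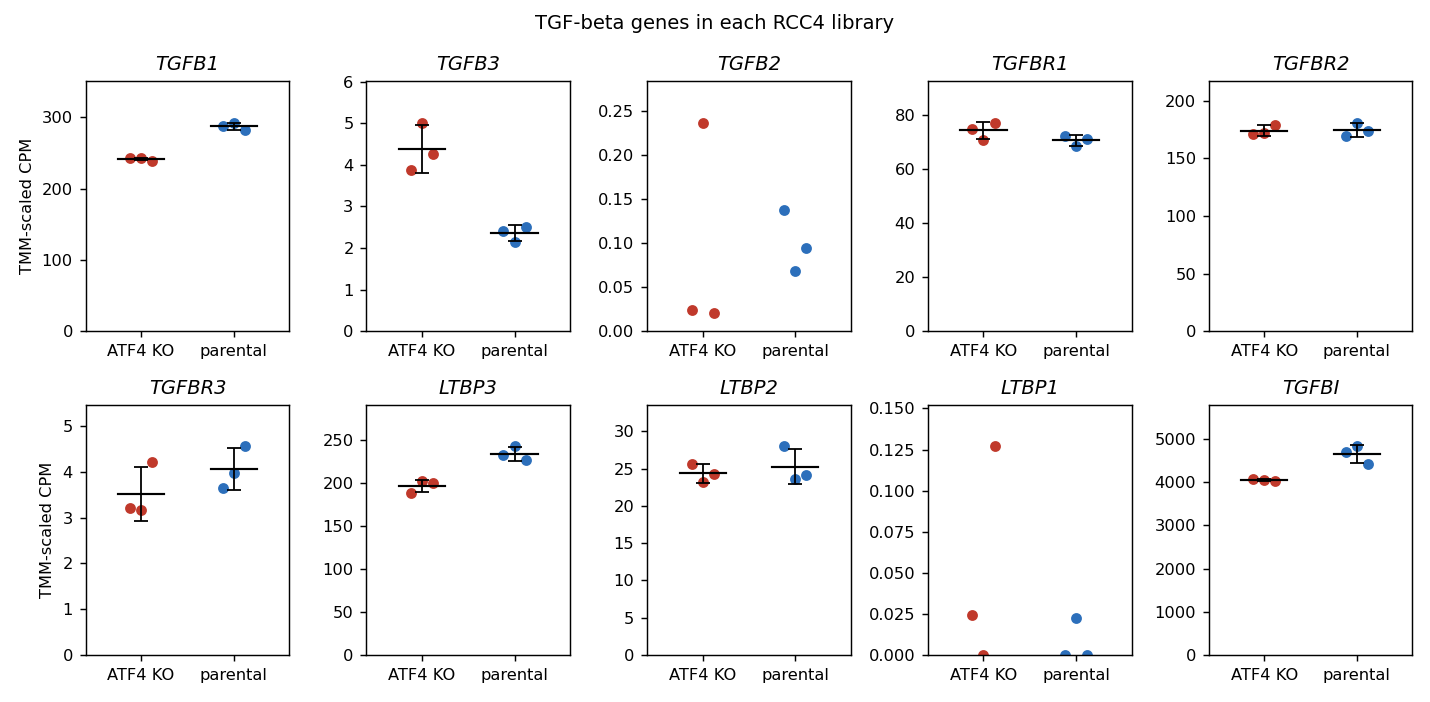
TMM-scaled CPM of each of the 10 genes in ATF4 KO (red, left) and parental (blue, right) RCC4 libraries, with every axis starting at 0. Each point is 1 library, and for the 8 tested genes bars mark the mean and whiskers the SD (n = 3 per group). The ATF4 KO points of TGFB1, LTBP3 and TGFBI lie below all parental points, those of TGFB3 lie above them, and the groups overlap in the other 6 panels.

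Levels of different genes were compared per kilobase of annotated exon (RPKM, from CPM and the summed exon length in GENCODE 29). TGFB1 was at 74.6 ± 0.605 RPKM in ATF4 KO cells and 88.8 ± 1.64 RPKM in parental cells, and TGFB3 at 0.892 ± 0.118 RPKM in ATF4 KO cells and 0.480 ± 0.0399 RPKM in parental cells (SD, n = 3 each). TGFB1 thus made up 98.8 ± 0.181% of the summed ligand RPKM in ATF4 KO cells and 99.4 ± 0.0585% in parental cells. The share of TGFB3 was 1.04, 1.34 and 1.16% in ATF4 KO libraries and 0.550, 0.479 and 0.585% in parental libraries. These shares did not overlap, but with 3 libraries against 3 the two-sided exact permutation test cannot go below p = 0.1, which it gave here (adjusted p = 0.36 over 9 shares). The rise of TGFB3 was small against the fall of TGFB1 on this scale. The summed ligand level stood at 75.8, 76.1 and 74.8 RPKM in ATF4 KO libraries and at 89.4, 90.8 and 87.6 RPKM in parental libraries.

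Neither kinase receptor nor the co-receptor passed the test. TGFBR2 (ENSG00000163513, chromosome 3, 30606502 to 30694142, plus strand), the receptor that binds ligand first, had 171, 172 and 179 CPM in ATF4 KO cells, against 170, 181 and 174 CPM in parental cells. The ATF4 KO libraries lay inside the parental range, with a log2 fold change of -0.004 (SE 0.030) and a 95% interval of -0.06 to 0.06 (p_adj = 0.928). TGFBR1 (ENSG00000106799, chromosome 9, 99104038 to 99154192, plus strand), the signalling kinase, had 75.0, 70.9 and 77.2 CPM in ATF4 KO cells, against 72.2, 68.5 and 71.3 CPM in parental cells. These ranges overlapped, with a log2 fold change of 0.07 (SE 0.038, 95% interval -0.004 to 0.15, p_adj = 0.124). TGFBR1 was called higher with scaling by total counts (0.10, p_adj = 0.0335) and without ATF4 KO replicate 2 (0.11, p_adj = 0.0411). TGFBR3, also called betaglycan, presents ligand to TGFBR2 and is best known for its binding of TGFB2. It had 3.21, 3.16 and 4.21 CPM in ATF4 KO cells, against 3.66, 3.98 and 4.56 CPM in parental cells. ATF4 KO replicate 3 lay inside the parental range, and the log2 fold change was -0.20 (SE 0.14, 95% interval -0.48 to 0.08, p_adj = 0.256), so that the data allow a fall larger than that of TGFB1 as well as no change. By length, TGFBR2 was at 37.0 ± 0.954 RPKM in ATF4 KO cells and 37.1 ± 1.22 RPKM in parental cells, TGFBR1 at 10.9 ± 0.468 RPKM in ATF4 KO cells and 10.3 ± 0.285 RPKM in parental cells, and TGFBR3 at 0.405 ± 0.0678 RPKM in ATF4 KO cells and 0.467 ± 0.0525 RPKM in parental cells (SD, n = 3 each).

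Of the 3 latent TGF-beta binding proteins among the members, the most abundant by length, LTBP3, was lower in ATF4 KO cells. LTBP3 (ENSG00000168056, chromosome 11, 65538805 to 65558930, minus strand) had 188, 202 and 200 CPM in ATF4 KO cells, against 233, 242 and 226 CPM in parental cells. The groups did not overlap. The mean was 196 ± 7.34 CPM in ATF4 KO cells and 234 ± 8.09 CPM in parental cells (SD, n = 3 each), 1.19-fold lower in ATF4 KO cells (log2 fold change -0.25, SE 0.030, 95% interval -0.31 to -0.19, p_adj = 6.89e-10). A larger log2 fold change in absolute value was seen in 33.9% of all tested genes. Genes around LTBP3 on chromosome 11 were lower too, with a median log2 fold change of -0.15 over the 50 tested neighbours on each side. With this median removed LTBP3 was at -0.10 (p_adj = 0.00874), still called at a smaller size. The neighbours of TGFB1, TGFB3 and TGFBI had medians of 0.06, 0.10 and -0.02, and removing them left these genes at -0.31, 0.80 and -0.18.

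LTBP2, which unlike the other family members does not bind latent TGF-beta and associates with fibrillin microfibrils, had 25.7, 23.2 and 24.3 CPM in ATF4 KO cells, against 28.0, 23.6 and 24.1 CPM in parental cells. The groups overlapped (log2 fold change -0.05, SE 0.061, 95% interval -0.17 to 0.07, p_adj = 0.524). LTBP1, the founding latency protein, had 1, 0 and 6 counts in ATF4 KO samples and 0, 1 and 0 counts in parental samples and did not pass the filter. By length, LTBP3 was at 19.1 ± 0.713 RPKM in ATF4 KO cells and 22.7 ± 0.785 RPKM in parental cells, and LTBP2 at 2.68 ± 0.139 RPKM in ATF4 KO cells and 2.78 ± 0.261 RPKM in parental cells (SD, n = 3 each). LTBP3 made up 87.6 ± 0.967% of the summed RPKM of the 3 genes in ATF4 KO cells and 89.1 ± 1.02% in parental cells, and this share overlapped between groups (two-sided exact permutation p = 0.2, adjusted p = 0.36 over 9 shares). LTBP4, on the list of genes that store or activate the ligand, is left out of this share, which would be smaller with it. It was at 91.9 ± 5.05 CPM in ATF4 KO cells and 83.4 ± 6.16 CPM in parental cells (SD, n = 3 each). LTBP2 was at 24.4 and 25.2 CPM. With 8108 exon bases against 9091 for LTBP2, LTBP4 lay above LTBP2 by length.

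**Figure D2:**
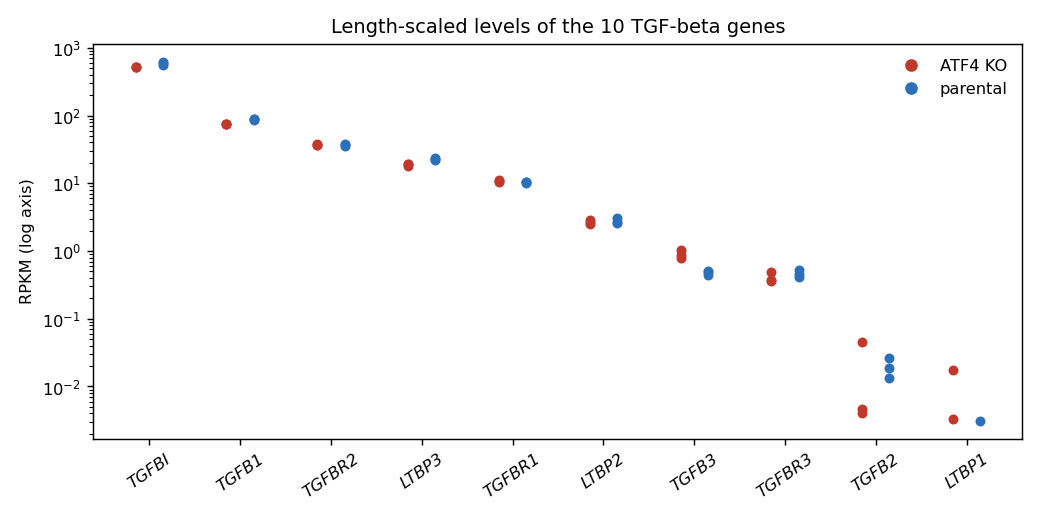
RPKM (log axis) of the 10 genes, ordered from the highest to the lowest mean over all libraries, with red points for ATF4 KO and blue points for parental RCC4 libraries (n = 3 per group). Libraries at 0 counts are not drawn, which concerns LTBP1. TGFBI lies highest, at 519 RPKM in ATF4 KO cells and 595 RPKM in parental cells, and TGFB2 and LTBP1 lie below 0.05 RPKM.

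TGFBI (ENSG00000120708, chromosome 5, 136028895 to 136063818, plus strand) encodes a secreted fasciclin-domain protein that binds collagens and integrins, and its transcription is induced by TGF-beta in many cell types. It was the most abundant member, at rank 39 of 15214 tested genes by RPKM. It had 4070, 4056 and 4038 CPM in ATF4 KO cells, against 4690, 4829 and 4416 CPM in parental cells. All ATF4 KO libraries lay below all parental libraries, and they varied less among themselves. The mean was 4054 ± 16.2 CPM in ATF4 KO cells and 4645 ± 210.4 CPM in parental cells (SD, n = 3 each), 1.15-fold lower in ATF4 KO cells (log2 fold change -0.20, SE 0.030, 95% interval -0.26 to -0.14, p_adj = 1.90e-07). A larger log2 fold change in absolute value was seen in 42.7% of all tested genes. The ranks by RPKM of the other tested members were 446 for TGFB1, 1129 for TGFBR2, 2134 for LTBP3, 4111 for TGFBR1, 8782 for LTBP2, 11897 for TGFB3 and 12700 for TGFBR3. The order of the mean levels was the same in both groups, and the ranges of neighbours in it did not overlap down to TGFB3. TGFB2 and LTBP1, at the low end, were near or under the floor. TGFB3, at 0.787 to 1.02 RPKM, lay above TGFBR3, at 0.363 to 0.483 RPKM, in ATF4 KO cells, while their ranges of 0.435 to 0.512 RPKM and 0.420 to 0.524 RPKM overlapped in parental cells.

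Counted together, 8 of the 10 genes could be tested, of which 1 was called higher and 3 were called lower, set against 21.2% and 20.8% of all tested genes. TGFB2 and LTBP1, the 2 that did not pass the filter, were low in both groups. The median log2 fold change of the 8 was -0.12, and that of all tested genes 0.01. The ATF4 KO libraries lay wholly above the parental libraries for 1 of the 8 and wholly below them for 3, as they did for 25.3% and 24.3% of all tested genes. The 3 lower genes differed by 1.15-fold to 1.19-fold, and TGFB3 by 1.86-fold.

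**Figure D3:**
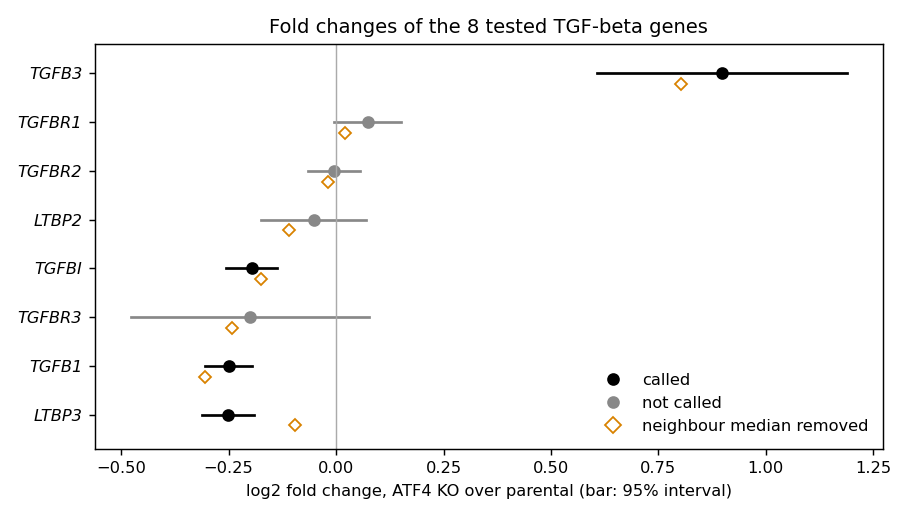
Log2 fold change, ATF4 KO over parental with 3 libraries in each group, of the 8 tested genes with its 95% interval as a bar, in black for called and grey for not called genes. Open diamonds give the value after the median of the neighbouring genes on the chromosome was removed. TGFB3 stands at 0.90, TGFB1 and LTBP3 at -0.25, and LTBP3 moves to -0.10 when its neighbours are taken into account.

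Among genes that store or activate the ligand 4 of 16 tested genes were higher and 5 lower (median log2 fold change -0.08), shares near the 21.2% and 20.8% of all tested genes. ITGB8 is the integrin chain that with ITGAV releases TGFB1 and TGFB3 from latency. It had 63.0, 68.4 and 74.4 CPM in ATF4 KO cells, against 120, 112 and 113 CPM in parental cells, without overlap (1.67-fold lower in ATF4 KO cells, log2 fold change -0.74, SE 0.046, p_adj = 1.42e-11). FURIN, the protease that cuts the propeptide from the ligand, had 107, 106 and 102 CPM in ATF4 KO cells and 125, 130 and 130 CPM in parental cells, likewise without overlap (log2 fold change -0.29, p_adj = 4.47e-11). MMP9, a protease expressed at a low level here, was 1.80-fold lower at 1.90 ± 0.171 CPM in ATF4 KO cells and 3.43 ± 0.285 CPM in parental cells (SD, n = 3 each, p_adj = 1.29e-05). The integrin chain ITGB5 and the ligand activator THBS1 were lower by small amounts, at -0.12 and -0.08 on the log2 scale. ITGB1, ITGAV, LTBP4 and the membrane protease MMP14 were higher at 0.11, 0.11, 0.14 and 0.08. ITGB3, BMP1 and ITGB6 were not called, at -0.0003, -0.07 and -0.14.

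Some of these small differences depended on the setting, and the groups overlapped for LTBP4. LTBP4 was not called without parental replicate 3 or ATF4 KO replicate 2 or 3 (p_adj = 0.0937, 0.109 and 0.0998), nor was MMP14 without parental replicate 1 or 3 or ATF4 KO replicate 2 (p_adj = 0.141, 0.0715 and 0.234), nor THBS1 without parental replicate 1 or ATF4 KO replicate 2 (p_adj = 0.145 and 0.0877). BMP1 was called lower without parental replicate 3 or ATF4 KO replicate 3 (p_adj = 0.00375 and 0.049) and ITGB6 without ATF4 KO replicate 3 (p_adj = 0.0115). MMP14 was also not called with DESeq2 (p_adj = 0.0692), nor THBS1 with scaling by total counts (p_adj = 0.0755). BMP1 was also called lower with another scaling, RLE (p_adj = 0.0466), and with a filter at a mean of 1 CPM (p_adj = 0.0379). With the median of neighbouring genes removed, ITGB1, LTBP4 and MMP14 were not called (0.01, 0.08 and -0.002, p_adj = 0.836, 0.244 and 0.967), and THBS1 was at -0.14 (p_adj = 6.6e-05). In that setting ITGB3, BMP1 and ITGB6 were called lower (-0.11, -0.13 and -0.18, p_adj = 0.00185, 0.00162 and 0.0239). There 1 gene of the list was higher and 8 were lower, set against 2736 higher and 2800 lower of all 15321 tested genes.

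Co-receptors and receptor partners were lower in 5 of 7 tested genes and higher in 1 (median log2 fold change -0.17), set against 20.8% lower and 21.2% higher among all tested genes. With the median of neighbouring genes removed 2 of the 7 were lower, set against 2800 of all 15321 tested genes. BAMBI, a pseudoreceptor that blocks signalling, was the higher one, at 8.24, 7.42 and 6.85 CPM in ATF4 KO cells, against 5.29, 5.73 and 6.27 CPM in parental cells (1.30-fold, log2 fold change 0.38, SE 0.11, p_adj = 0.00314). The groups did not overlap. The lower ones were ZFYVE9, which brings SMAD2 and SMAD3 to the receptor, at -0.24, the receptor-associated TGFBRAP1 at -0.21, the membrane co-receptor CD109 at -0.18, STRAP at -0.13 and the TGFBR1-binding protein FKBP1A at -0.07. CD109, STRAP and FKBP1A were not called with the median of neighbouring genes removed (p_adj = 0.172, 0.334 and 0.595), and FKBP1A was not called without parental replicate 1 or 2 or ATF4 KO replicate 2 or 3 (p_adj = 0.145, 0.067, 0.075 and 0.0543). FKBP1A was also not called with scaling by total counts (p_adj = 0.159) or without a filter on low counts (p_adj = 0.0769). ACVRL1, a receptor found mainly on endothelium, was at 5.67 CPM in ATF4 KO cells and 6.38 CPM in parental cells and was not called (-0.17, p_adj = 0.235). ENG, its endothelial partner, had at most 4 counts in any sample.

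The SMAD transducers themselves were not called. SMAD3 was at 322 ± 5.79 CPM in ATF4 KO cells and 325 ± 5.00 CPM in parental cells (log2 fold change -0.015, SE 0.028, p_adj = 0.706), SMAD2 at -0.01 (SE 0.035) and SMAD4 at 0.03 (SE 0.044). In the list of transducers and cofactors 1 of 8 tested genes was higher, the acetyltransferase gene CREBBP at 0.10, and 2 were lower, RUNX1 on chromosome 21 at -0.31 and the acetyltransferase gene EP300 on chromosome 22 at -0.23 (list median -0.01), set against 21.2% higher and 20.8% lower among all tested genes. RUNX1 and EP300 lie among genes with medians of -0.31 and -0.27, and neither was called when these were removed (p_adj = 0.985 and 0.398). CREBBP was not called then (p_adj = 0.131), nor without parental replicate 1 or ATF4 KO replicate 3 (p_adj = 0.0651 and 0.123). SMAD3 was called lower when its neighbours' median was removed (-0.07, p_adj = 0.0411). SP1 and TRIM33 were not called, at -0.03 and 0.02.

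Of 16 tested inhibitors and turnover factors 1 was higher and 4 were lower (median log2 fold change -0.02), set against 21.2% and 20.8% of all tested genes. The ubiquitin ligase gene NEDD4L, which limits activated SMAD2 and SMAD3, had 216, 213 and 216 CPM in ATF4 KO cells, against 268, 273 and 274 CPM in parental cells (log2 fold change -0.34, SE 0.028, p_adj = 2.61e-15). PMEPA1, a TGF-beta-induced feedback inhibitor, had 255, 242 and 244 CPM in ATF4 KO cells, against 310, 305 and 299 CPM in parental cells (-0.30, p_adj = 2.05e-13). Neither gene overlapped between the groups, and on chromosome 20 the neighbours of PMEPA1 had a median of -0.19, with which removed it was at -0.11 (p_adj = 0.00149). The deubiquitinase gene USP11 and the corepressor gene TGIF2 were lower at -0.21 and -0.13, and the deubiquitinase gene USP4 was higher at 0.14. None of these 3 was called with the median of neighbouring genes removed (p_adj = 0.347, 0.69 and 0.268). TGIF2 was not called without parental replicate 1 or 2 or ATF4 KO replicate 1 (p_adj = 0.0692, 0.108 and 0.177), nor USP4 without parental replicate 2 or ATF4 KO replicate 1 or 2 (p_adj = 0.171, 0.0821 and 0.078). TGIF2 was also not called with scaling by total counts (p_adj = 0.0794). The inhibitory SMAD7, itself a target of the pathway, was at 80.3 ± 2.55 CPM in ATF4 KO cells and 82.3 ± 1.62 CPM in parental cells (-0.03, p_adj = 0.476), and SMURF2 and SMURF1 were not called, at -0.05 and 0.01. SMURF2 was called lower when its neighbours' median was removed (-0.13, p_adj = 0.0022).

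Of 23 tested genes known to respond to TGF-beta 5 were higher and 9 lower (median log2 fold change -0.06), set against 21.2% and 20.8% of all tested genes, and the other 7 on the list had at most 3 counts per library. IGFBP3, a secreted binding protein of insulin-like growth factors, had 1299, 1346 and 1329 CPM in ATF4 KO cells, against 706, 723 and 723 CPM in parental cells (1.85-fold, log2 fold change 0.89, SE 0.028, p_adj = 4.44e-33). COL5A1, the tropomyosin gene TPM1 and the collagen cross-linking enzyme gene LOX were also higher, at 0.26, 0.24 and 0.17. In the other direction, TGM2, a matrix cross-linking transglutaminase, had 25.9, 26.0 and 22.01 CPM in ATF4 KO cells, against 45.5, 49.4 and 50.2 CPM in parental cells (1.96-fold lower in ATF4 KO cells, log2 fold change -0.97, SE 0.056, p_adj = 1.28e-18). Fibronectin, FN1, was 1.90-fold lower in ATF4 KO cells (-0.93, SE 0.032). COL1A1 was lower at -0.31 (p_adj = 0.0062), but was not called without ATF4 KO replicate 1, 2 or 3 (p_adj = 0.0573, 0.0563 and 0.0704). COL4A1, COL4A2 and the cell cycle inhibitor gene CDKN1A were not called, at 0.04, -0.03 and -0.01.

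**Figure D4:**
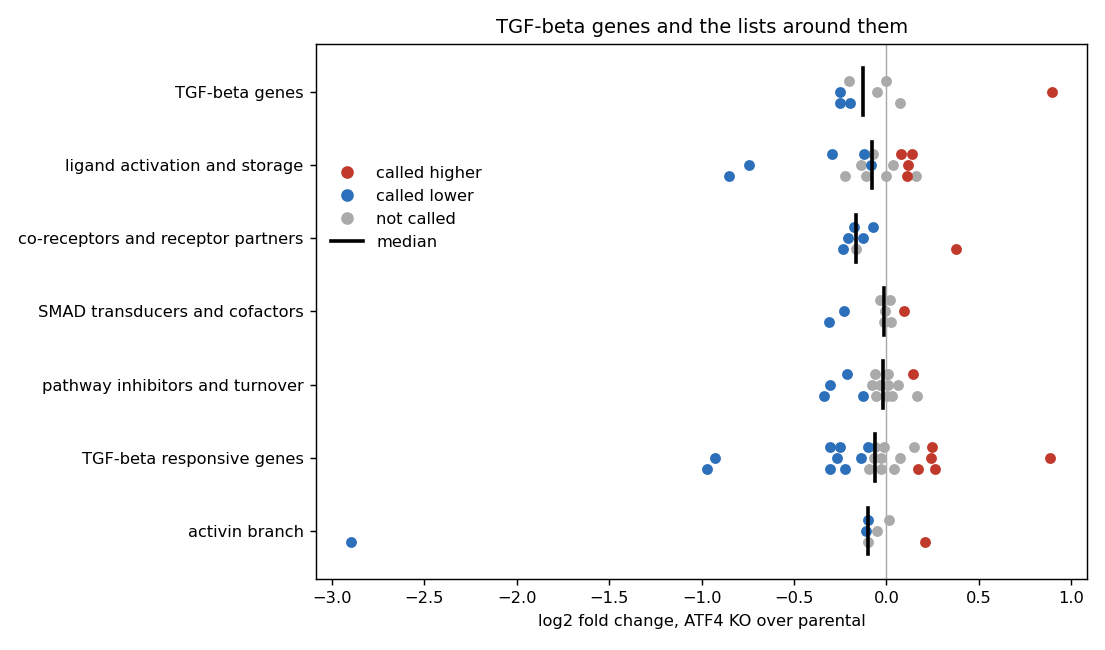
Log2 fold change, ATF4 KO over parental with 3 libraries in each group, of each tested gene in the 10-gene TGF-beta set and in 6 lists around it, with red points for called higher, blue for called lower and grey for not called genes, and a black bar at the list median. Points are spread vertically only to keep them apart. List medians lie between -0.17 and -0.01, TGFB3 and IGFBP3 stand furthest right at 0.90 and 0.89, and the activin subunit INHBE stands furthest left at -2.89.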

How the data were processed

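RNA was sequenced from 3 ATF4 KO and 3 parental RCC4 samples, grouped by their labels, using a stranded kit for polyadenylated RNA. The authors deposited raw counts per Ensembl gene. The submitters' processing notes name bcl2fastq 2.20, cutadapt, STAR, HTSeq and GRCh38. The sources used here give no other version, no annotation release and no strand setting. By default HTSeq leaves out reads that fit several genes, so overlapping genes are uncertain.

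Analyses used R 4.3.3. Genes kept by filterByExpr were scaled by TMM and compared with edgeR 4.0.16 (quasi-likelihood F test, robust, no replicate term), with Benjamini-Hochberg adjustment over all 15321 genes and calls below 0.05. Symbols came from a gene name table (60370 identifiers) and GENCODE 29 (a further 289), which also gave coordinates and exon lengths. Its release may differ from that used for counting. RPKM was CPM per kilobase of summed exons. Gene tests were tested on simulated counts. Counts of same-group replicates differed beyond sampling noise (chi-square over its degrees of freedom 3.59 to 5.80), so all were kept. With 41002611 to 46755358 counts per library, a count of 0 allows at most 0.0642 to 0.0732 CPM, taken over these totals without TMM scaling.

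Members and lists were chosen with earlier results of these data known. In each list the 3 called genes with the largest and smallest fold changes and the 3 most abundant uncalled genes were named, or all where 5 or fewer. Some genes that this rule names are not reported here. Overlapping genes were named by annotation. PDGFRA, PDGFRB, COL3A1, DCN, LUM, CD3E, CD14, TYROBP, VIM, CA9, NDUFA4L2, PAX8, KRT18, ENG and FST were named in addition after their values were seen. Promoter letters came from RefSeq, which matched all 10 genes. Alternatives were DESeq2 1.42.0, limma-voom (limma 3.58.1), 2 other scalings, 2 other filters, a replicate block, removal of the median of 50 neighbouring tested genes on each side, and leaving out each sample.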

Additional observations from a re-analysis of the deposited data

How the results depend on the processing

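TGFB1, TGFB3, TGFBI and LTBP3 kept their direction and call under all 14 alternatives, with log2 fold changes from -0.31 to -0.22, 0.79 to 0.97, -0.23 to -0.17 and -0.27 to -0.10. TGFBR2, TGFBR3 and LTBP2 were called under none, and TGFBR1 under 2. Of the 10 genes, 3 were lower throughout, and 1 was higher, with 2 under scaling by total counts and 1 to 2 when a sample was left out. Removal of the neighbours' median moved several list counts, to 1 higher and 8 lower for ligand activation and storage, 2 lower for receptor partners, 0 higher and 1 lower for SMAD transducers, and 0 higher for inhibitors. It gave 2736 higher and 2800 lower among all 15321 tested genes. It also turned MMP14 to -0.002, FKBP1A to 0.021, EP300 to 0.0395, USP11 to 0.0442 and TGIF2 to 0.0272, none of them called, and the cause was not tested. Leaving out 1 sample gave 2 to 4 higher genes for ligand activation and 0 to 1 higher for SMAD transducers and for inhibitors. Over the 53 other named genes and these alternatives, 682 values kept direction and side of the threshold, 42 lost the call, 12 gained it and 5 turned. With a filter at a mean of 1 CPM, INHBE gave no value. With scaling by total counts 3807 of all genes were higher and 2780 lower. Counts over all genes ranged from 2791 to 3046 higher and 2803 to 3056 lower when a sample was left out. Samples of the 2 groups that share a replicate number did not deviate together (correlations of -0.03, 0.01 and -0.02 over genes). Whether they share a batch that acts on some genes was not tested. With the replicate block 3224 genes were higher and 3181 lower, against 3244 and 3184 without it, the TGF-beta genes stayed at 1 higher and 3 lower, and LTBP4 was not called (p_adj = 0.0771). Depth limits TGFB2 and LTBP1, which without a filter were not called (p_adj = 0.992 and 0.387), and the wide interval of TGFBR3.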

Other observations

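In the neighbouring activin branch of the family, INHBE, an activin beta subunit made mainly by hepatocytes, had 5, 8 and 7 counts in ATF4 KO samples and 54, 44 and 47 counts in parental samples. This was 7.44-fold lower in ATF4 KO cells (log2 fold change -2.89, SE 0.38, p_adj = 5.12e-09), from 0.147 ± 0.0253 CPM in ATF4 KO cells and 1.12 ± 0.121 CPM in parental cells (SD, n = 3 each). INHBA, the abundant activin subunit of these cells, was not called, at 181 ± 4.40 CPM in ATF4 KO cells and 187 ± 3.62 CPM in parental cells (-0.05, p_adj = 0.171). Of 7 tested genes in this list 3 were lower and 1 was higher (median log2 fold change -0.10), set against 20.8% and 21.2% of all tested genes. The activin receptor gene ACVR2B was higher at 0.21 (p_adj = 0.00296), and the activin antagonist gene FSTL3 was lower at -0.10 (p_adj = 0.00344). The receptor gene ACVR1B was lower at -0.11 (p_adj = 0.0274), but was not called without parental replicate 1 or 3 or ATF4 KO replicate 2 or 3 (p_adj = 0.0836, 0.072, 0.131 and 0.061). GDF11 and ACVR2A were not called, at -0.10 and 0.01. The other 10 listed genes, among them the activin antagonist gene FST, had at most 4 counts in any sample.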
